A study of Drosophila melanogaster with 3 samples.

Results

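The Polycomb group genes examined here are 10 genes that encode core Polycomb proteins of Drosophila melanogaster, namely Pc, ph-p, ph-d, Psc, Su(z)2, Sce, Scm, E(z), esc and pho. They were taken by symbol from the Ensembl annotation of dm6, which holds 13968 protein-coding genes on the chromosome arms, and all 10 symbols matched. Chromatin binding of CG16779-GFP was recorded by chromatin immunoprecipitation and sequencing in whole prepupae, males and females pooled. The animals came from 1 transgenic line, CG16779-MiMIC, in which an eGFP exon inside an intron makes a fusion gene, and the antibody recognised GFP. There was 1 group of 3 biological replicates, all with the same genotype and stage. The control libraries were not analysed here. Whole animals mix all tissues, so a peak present in a few cells and one present weakly in many cannot be told apart.

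For each gene, every peak summit in the gene or within 2 kb of it was collected from 5 peak lists. The lists were 1 for each replicate, 1 for the 3 replicates pooled, and the final set chosen by the irreproducible discovery rate (IDR). The replicate and pooled lists held 30000 regions each, including many weak ones, and the IDR set held 4805 peaks on the arms. Each region carries the authors' score, on a separate scale in each replicate list and in the pooled list. The IDR peaks near the Polycomb genes had the same scores and ranks as in the pooled list, so these lists are not separate evidence. Scores were turned into ranks on the arms, with 1 the strongest. Read depth is unknown from these files. With no second condition and no test of gene sets, counts are given beside those of all protein-coding genes, as descriptions.

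Polycomb proteins keep genes silent through cell divisions. Polycomb repressive complex 2, with the methyltransferase E(z) and its partner esc, methylates histone H3, and Pc binds that mark through its chromodomain. Pc works in Polycomb repressive complex 1 together with Ph, Psc or the related Su(z)2, and Sce, a ubiquitin ligase of histone H2A. Scm is linked to both complexes, and pho encodes a DNA-binding protein that helps to bring them to Polycomb response elements. In prepupae these proteins maintain the segment-specific pattern of homeotic genes while imaginal tissues replace larval ones. ph-p and ph-d are adjacent copies of 1 ancestral gene, and Psc and Su(z)2 are related neighbours.

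The sequences below are the stretches around the summits that the results turn on: the strongest peak at ph-p, the strongest at ph-d, the promoter peak of ph-d, the peak beside Pc and the replicate summit at E(z). They are dm6 bases of the forward strand, read from the RefSeq copy of the assembly, and all of these genes lie on the reverse strand. Stretches of 101 bases are centred on the summit, and the shorter ones were ended at an exon border. Capitals mark runs of at least 8 A or T bases, a marking chosen after the sequences had been seen.
ph-p, chrX:2137244-2137344: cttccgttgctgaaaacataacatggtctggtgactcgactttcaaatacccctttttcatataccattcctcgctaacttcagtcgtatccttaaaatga
ph-d, chrX:2124130-2124230: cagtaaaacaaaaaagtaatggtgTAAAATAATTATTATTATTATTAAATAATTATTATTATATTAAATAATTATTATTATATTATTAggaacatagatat
ph-d promoter, chrX:2123421-2123521: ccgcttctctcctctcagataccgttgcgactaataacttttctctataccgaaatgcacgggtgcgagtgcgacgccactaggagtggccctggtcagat
Beside Pc, chr3L:21304513-21304608: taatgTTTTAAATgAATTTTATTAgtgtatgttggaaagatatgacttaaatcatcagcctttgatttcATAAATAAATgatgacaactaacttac
E(z), chr3L:10637977-10638041: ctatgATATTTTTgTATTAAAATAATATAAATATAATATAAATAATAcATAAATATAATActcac

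CG16779-GFP peaks of the IDR set lay at the promoters of the paired genes ph-p and ph-d, and Psc and Su(z)2. All encode subunits of Polycomb repressive complex 1, but Pc and Sce of the same complex had no IDR peak at the promoter. E(z) of Polycomb repressive complex 2 had a promoter region in every replicate list, though none in the IDR set. IDR summits were found within 500 bp of an annotated start site in 4 of 10 genes, beside 13.0% of all protein-coding genes. A summit in the gene or within 2 kb was found in 5 of 10 genes, beside 25.8% of all genes, and the fifth gene was Pc. Sce, Scm, E(z), esc and pho had none. The 5 genes shared 11 distinct IDR summits, with scores between 242 and 1877. Their median rank was 1500, where the median of the IDR set is 2403, and 9 of the 11 stood above that median. Most of the 11 lay at the neighbouring genes ph-p and ph-d, so the median largely describes that locus. The strongest, counted for Pc, lay 95 bp from the start of CG11309.

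**Figure D1:**
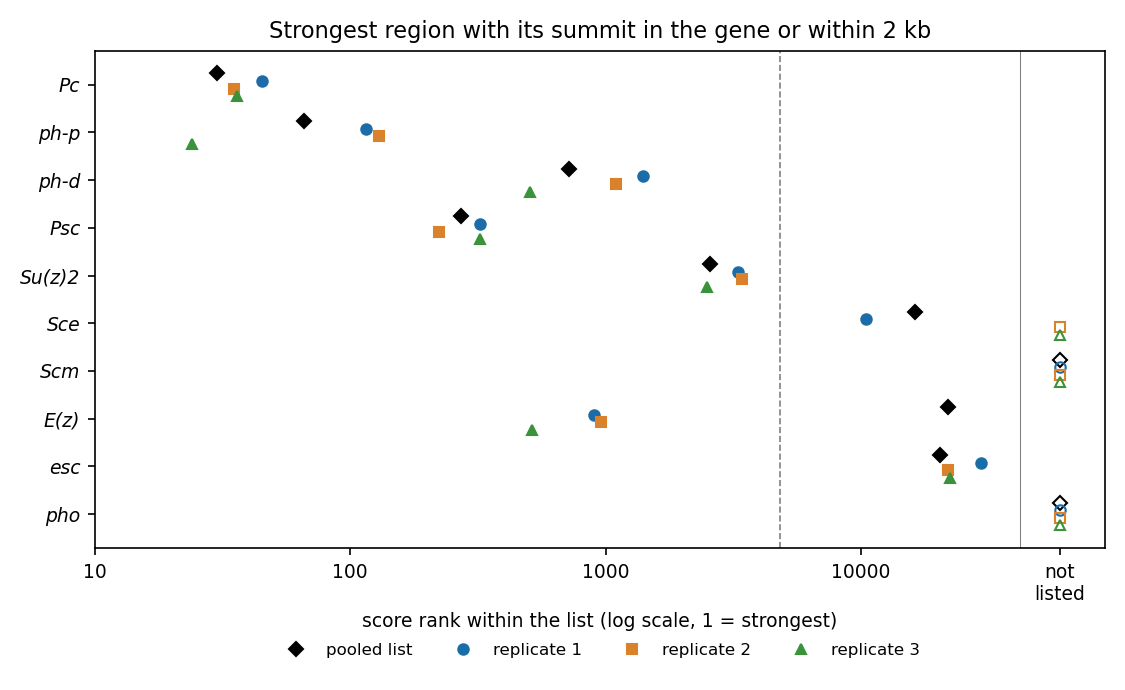
Score rank (log scale) of the strongest region with its summit in each gene or within 2 kb, for the pooled list (diamonds) and replicates 1 (circles), 2 (squares) and 3 (triangles). The dashed line marks rank 4805 and open symbols on the right stand for genes with no region in that list. Pc, ph-p, ph-d, Psc and Su(z)2 lie left of the line in every list, E(z) lies left of it in the replicates but not in the pooled list, and Scm and pho have no region.

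Gene length moves with these counts. The 5 genes with an IDR summit were between 7560 and 14998 bp long, and the others were between 1599 and 4253 bp apart from pho with 9160 bp. With protein-coding genes in 5 length classes of equal size, the longest class ran from 6472 to 1965857 bp. It thus holds far longer genes than the Polycomb genes examined. In it 30.5% had an IDR summit at a start site and 51.9% had one in the gene or within 2 kb. Of the 6 Polycomb genes in that class, 4 had one at a start site and 5 had one within 2 kb. Over all 7433 genes within the length range of the Polycomb genes the shares were 14.7% and 27.6%. The number of annotated start sites differed as well, and a gene with more of them has more places to be counted. ph-p had 3, while ph-d, Psc, Su(z)2 and E(z) had 2. Pc, Sce, Scm, esc and pho had 1. The counted genes are also neighbours in pairs, so they are not separate places in the genome. The part of length or of start sites in the difference was not tested.

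**Figure D2:**
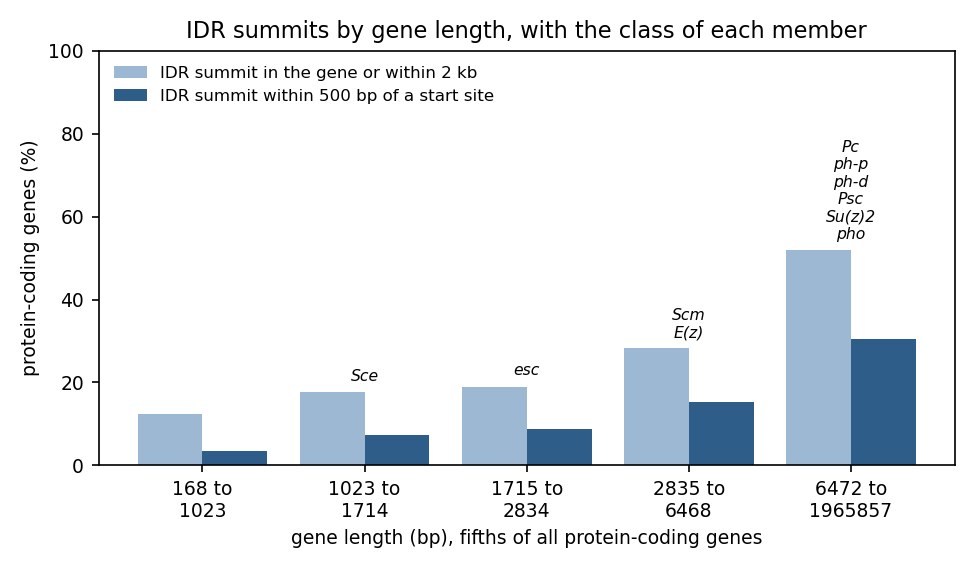
Percent of protein-coding genes with an IDR summit in the gene or within 2 kb (light bars) and within 500 bp of a start site (dark bars), in 5 classes of gene length in bp with equal numbers of genes. Polycomb gene names stand above the class they belong to. The light bars run from 12.3% in the shortest class to 51.9% in the longest, which holds Pc, ph-p, ph-d, Psc, Su(z)2 and pho.

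In the single replicates the promoter count was 5 of 10 each time, since E(z) joined the other 4. Among the 4805 strongest regions of a replicate, as many as the IDR set has peaks, 14.5%, 15.8% and 11.4% of all protein-coding genes had a summit within 500 bp of a start site in replicates 1, 2 and 3. Within 2 kb of the gene the count was 6 of 10 in each replicate, namely Pc, ph-p, ph-d, Psc, Su(z)2 and E(z), beside 27.7%, 29.7% and 23.7% of all genes. Over the replicates 13.9% ± 2.25 of all genes were marked at a start site (SD, n = 3). The same 5 Polycomb genes were marked at a start site in all 3 replicates, beside 6.74% of all genes. In the whole pooled list, which includes weak regions, 8 of 10 Polycomb genes had a summit within 2 kb, beside 55.5% of all genes.

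Of the 11 IDR summits, 7 lay at the polyhomeotic locus. ph-p and ph-d encode SAM-domain subunits of Polycomb repressive complex 1 and lie in a row on the reverse strand of X, ph-p (FBgn0004861) from 2126210 to 2138371 and ph-d (FBgn0004860) from 2115727 to 2123286, with 2923 bp between them. IDR summits numbered 5 for ph-p and 3 for ph-d, and 1 in the gap counts for both. Pooled summits numbered 8 and 4, and the counts for ph-p were 7, 8 and 9 in replicates 1, 2 and 3.

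The strongest ph-p peak, at X from 2137005 to 2137567, had a pooled score of 1461 and IDR rank 66. Its summit lay in an intron between 2 start sites, 439 bp upstream of the nearest one and 1077 bp downstream of the first. The matching regions ranked 164, 130 and 24 in replicates 1, 2 and 3, so it stood highest in replicate 3. The second peak, from 2137698 to 2138162, had a score of 1146 and rank 140, with its summit in the 5' untranslated part of the first exon, 392 bp downstream of the first start. It ranked 115, 156 and 133, closer together than the first. In replicate 1 this second peak was the stronger of the pair, with scores of 389.9 and 347.9, and in replicates 2 and 3 the order was the other way round.

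Inside ph-p a further pair of weaker peaks lay in introns, 1306 and 2204 bp downstream of the nearest start. Their scores were 370.3 and 242, and their IDR ranks 1500 and 2974. The first ranked 1778, 4860 and 983 in replicates 1, 2 and 3, which put it just outside the 4805 strongest of replicate 2. The other ranked 3251, 4500 and 2837. Of the 11 IDR summits near Polycomb genes, 10 were matched among the strongest regions of all 3 replicates, and the exception was the one at 1306 bp. The IDR set derives from these same replicates, so such matches were largely fixed in advance. The share of all IDR peaks matched in this way is not given, so the count is no result about Polycomb genes.

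At ph-d the 3 IDR summits lay upstream of the gene. Weaker regions inside it differed among the lists. Replicate 2 had one 328 bp upstream of the second ph-d start at rank 2461, above its promoter region, replicate 1 had its best at rank 5594 and the pooled list had one at rank 11717, while replicate 3 had none. The strongest IDR summit, at X from 2123917 to 2124350, scored 548.1 at rank 719, with its summit 894 bp upstream of the first start. It ranked 1400, 1096 and 504 in replicates 1, 2 and 3. The promoter peak, 185 bp upstream of that start, had a score of 329.5 and rank 1824, and ranked 2983, 3934 and 772. The third summit, 1099 bp upstream, had a score of 316.4 and rank 1946, with replicate ranks of 1758, 4216 and 2918. This is the summit in the gap that also counts for ph-p, 1825 bp beyond the end of that gene. The strongest ph-d summit is 2030 bp beyond that end, just outside the window. All 3 ph-d summits had their lowest replicate position in replicate 2 or replicate 1, and the first and the promoter peak were highest in replicate 3.

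**Figure D3:**
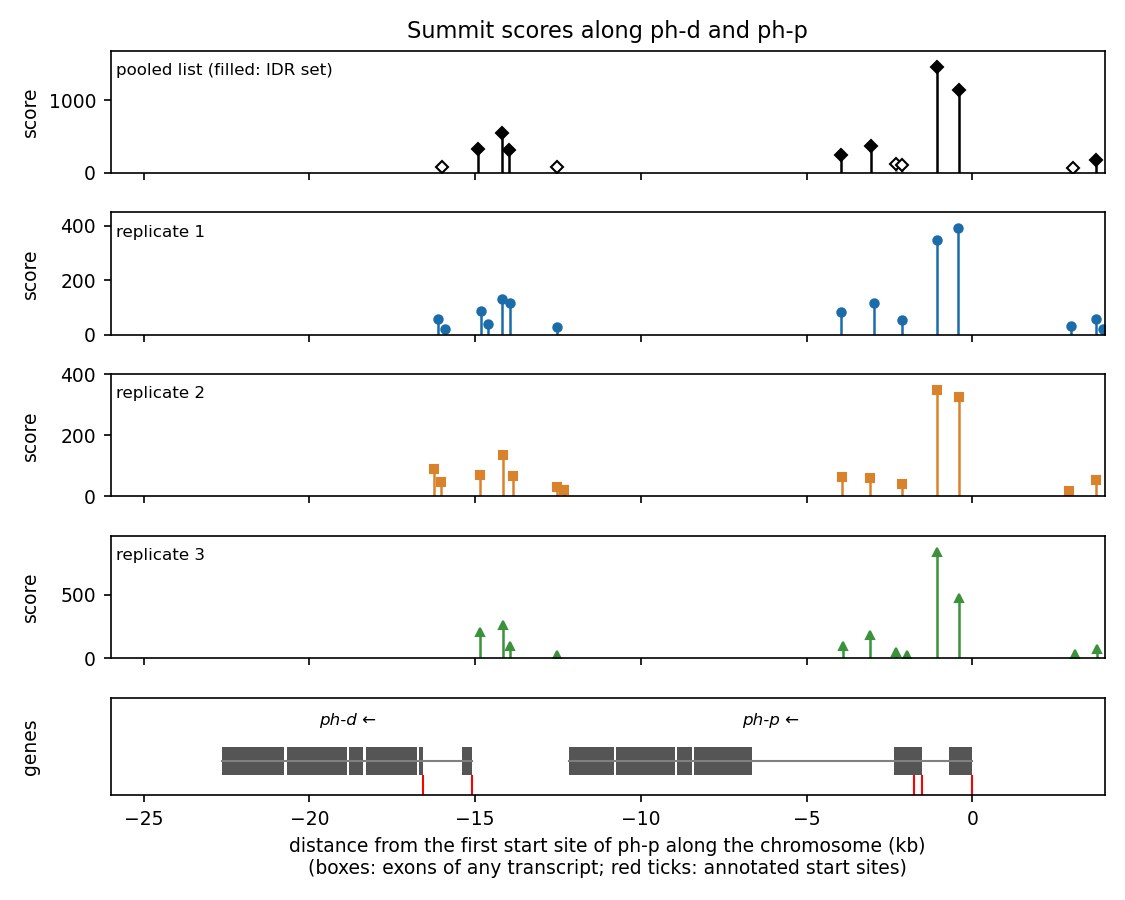
Authors' scores of all summits along ph-d and ph-p in the pooled list and in replicates 1 to 3, by distance in kb from the first start site of ph-p, each panel on its own scale. Filled diamonds are summits of the IDR set. In every panel the pair of highest summits lies at the start sites of ph-p, and a group of lower ones lies upstream of ph-d.

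Because ph-p and ph-d are copies of each other, reads in parts of these peaks can belong to either. Around the ph-d promoter summit, 44 of 166 overlapping words of 36 bases (26.5%) occurred a second time on the arms, each of them near the start sites of ph-p, between X 2136960 and 2137102. Around the strongest ph-p summit 7 of 166 words (4.22%) recurred, all beside ph-d. The remaining summits near Polycomb genes, and the E(z) summit, had 0 such words. The ph-d promoter value is therefore uncertain, and ph-d counts as having an IDR summit at a start site through this peak alone. The ph-p copies of the 44 words also reach into the strongest ph-p peak, which starts at 2137005, outside the window searched around its summit. The read length is not given in the sources used here, so 36 bases is a choice.

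Psc and Su(z)2, whose proteins stand in for each other in Polycomb repressive complex 1, lie head to head on 2R with 15506 bp between them. Psc (FBgn0005624, from 12965997 to 12980994, reverse strand) had 2 IDR summits. The stronger, from 12975467 to 12975727, lay in an intron 5072 bp downstream of the nearest start. It had a score of 884.3 and rank 271, and it ranked 321, 223 and 321 in replicates 1, 2 and 3, with summits within 13 bp of the pooled one. The promoter peak, from 12980583 to 12981022, had its summit 145 bp from a start site, a score of 364.8 and rank 1534, and it ranked 2064, 2846 and 1168. In all lists the intronic peak of Psc was above its promoter peak. Weak summits in the gene varied among libraries, with 13, 4 and 3 summits in all in replicates 1, 2 and 3.

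Su(z)2 (FBgn0265623, from 12996501 to 13007911, forward strand) had a single IDR summit, 33 bp downstream of its second start site and 655 bp from the first. Its score was 267.9 and its rank 2556, and it alone of the top peaks of these 5 genes stood below the median of the IDR set. It ranked 3296, 3407 and 2487 in replicates 1, 2 and 3. A pooled summit beyond the 3' end of the gene, with a score of 125, did not reach the IDR set.

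Between Psc and Su(z)2, outside the 2 kb windows, lay 3 more IDR summits. The highest, from 12985056 to 12985397, scored 1296 at rank 101, above every summit inside the windows of either gene. It lay 4173 bp upstream of the first Psc start and 200 bp from the start of the non-coding RNA gene lncRNA:CR44339, and its replicate ranks were 118, 138 and 80. The next, with a score of 384.5 and rank 1404, lay 4843 bp upstream of Su(z)2 and ranked 1342, 1507 and 1661. Its nearest start, 2239 bp away, was that of CG33798. The weakest had a score of 241.2 and rank 2990, and lay 2881 bp from the CG33798 start. Its matches ranked 3058 in replicate 1 and 1192 in replicate 3, and no region of replicate 2 overlapped it.

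**Figure D4:**
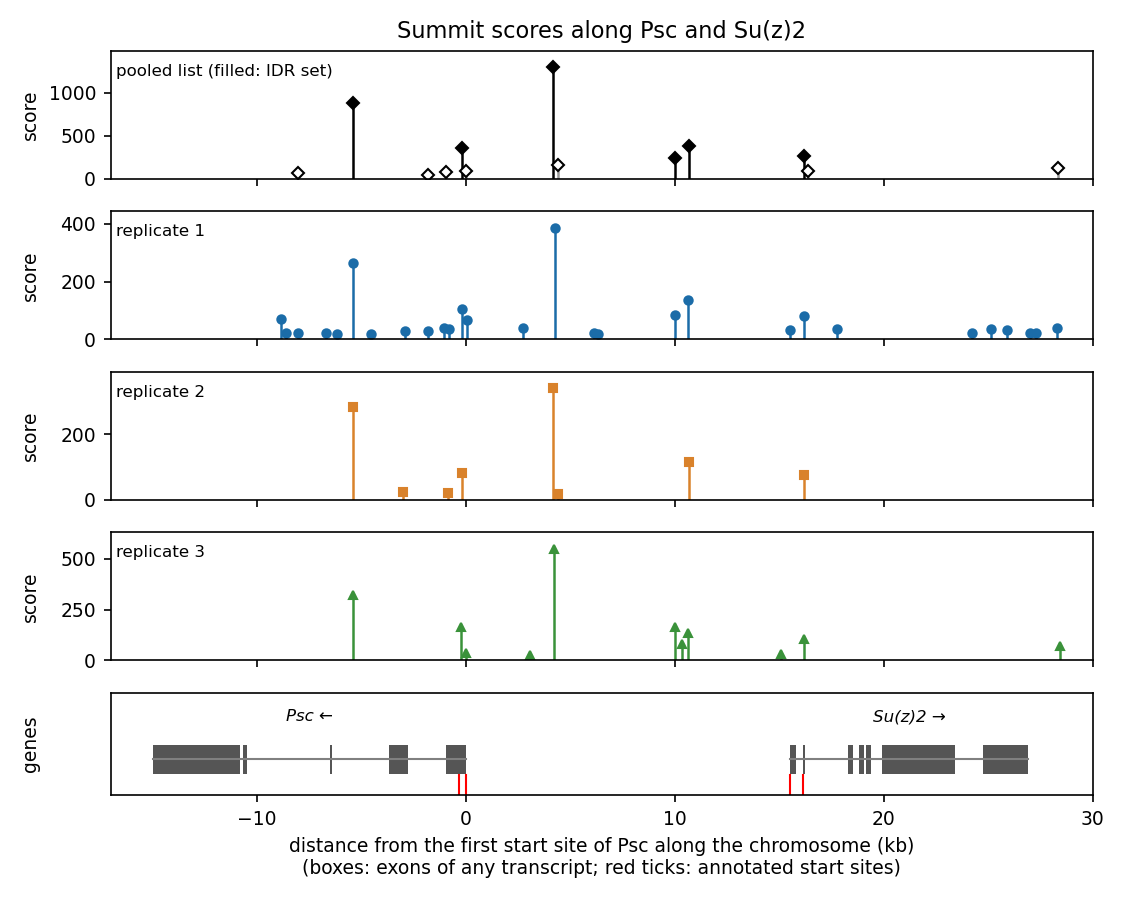
Authors' scores of all summits along Psc and Su(z)2 in the pooled list and in replicates 1 to 3, by distance in kb from the first start site of Psc, each panel on its own scale. Filled diamonds are summits of the IDR set. In each panel the highest summit lies between the genes, at a distance of about 4173 bp, and the next lies in the Psc intron.

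Pc, which encodes the chromodomain subunit, carried no IDR summit at its own promoter. Its single summit, at 3L from 21304389 to 21304763, lay 1575 bp beyond the 3' end of the gene and 13457 bp from its only start site. The nearest start, 95 bp away, was that of CG11309 (FBgn0037070), and the summit fell in an intron of CG11309, 46 bp from an exon border. It was the strongest of the 11 summits, with a score of 1877 and rank 30, and it ranked 45, 35 and 36 in replicates 1, 2 and 3. At the Pc start itself replicate 1 listed a region 398 bp away at rank 19565 and replicate 2 one 214 bp away at rank 19239. Replicate 3 and the pooled list held none within 500 bp. The Pc gene (FBgn0003042) extends from 21306138 to 21318020 on the reverse strand.

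E(z), the methyltransferase gene of Polycomb repressive complex 2, was marked in every replicate but in neither combined list. The gene (FBgn0000629) lies on 3L from 10634575 to 10638130 on the reverse strand. Regions at its promoter had scores of 165.6, 146.2 and 258.4 and ranks of 899, 955 and 514 in replicates 1, 2 and 3, and their summits lay within 5 bp of each other, 125, 121 and 121 bp from the nearest start. The summit fell in an intron between both start sites, 28 bp from an exon border, in the stretch printed above. It was also 142 bp from the start of Cnep1r2, which begins 16 bp from the first E(z) start on the other strand. The nearest pooled summit was 915 bp away, with a score of 51.69 and rank 21925, and the nearest IDR summit lay 22577 bp from an E(z) start.

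This pattern was rare. Of 557 regions of replicate 1 that ranked among its 1000 strongest and overlapped one of the 1000 strongest regions of both other replicates, 2 overlapped no pooled region (0.359%), and E(z) was one of them. Among the 4805 strongest regions the count was 5 of 2420. Of 942 protein-coding genes marked at a start site in all 3 replicates, 919 had an IDR summit within 500 bp. The final set thus holds no E(z) peak where each replicate has one, and the reason for the missing pooled region was not tested.

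**Figure D5:**
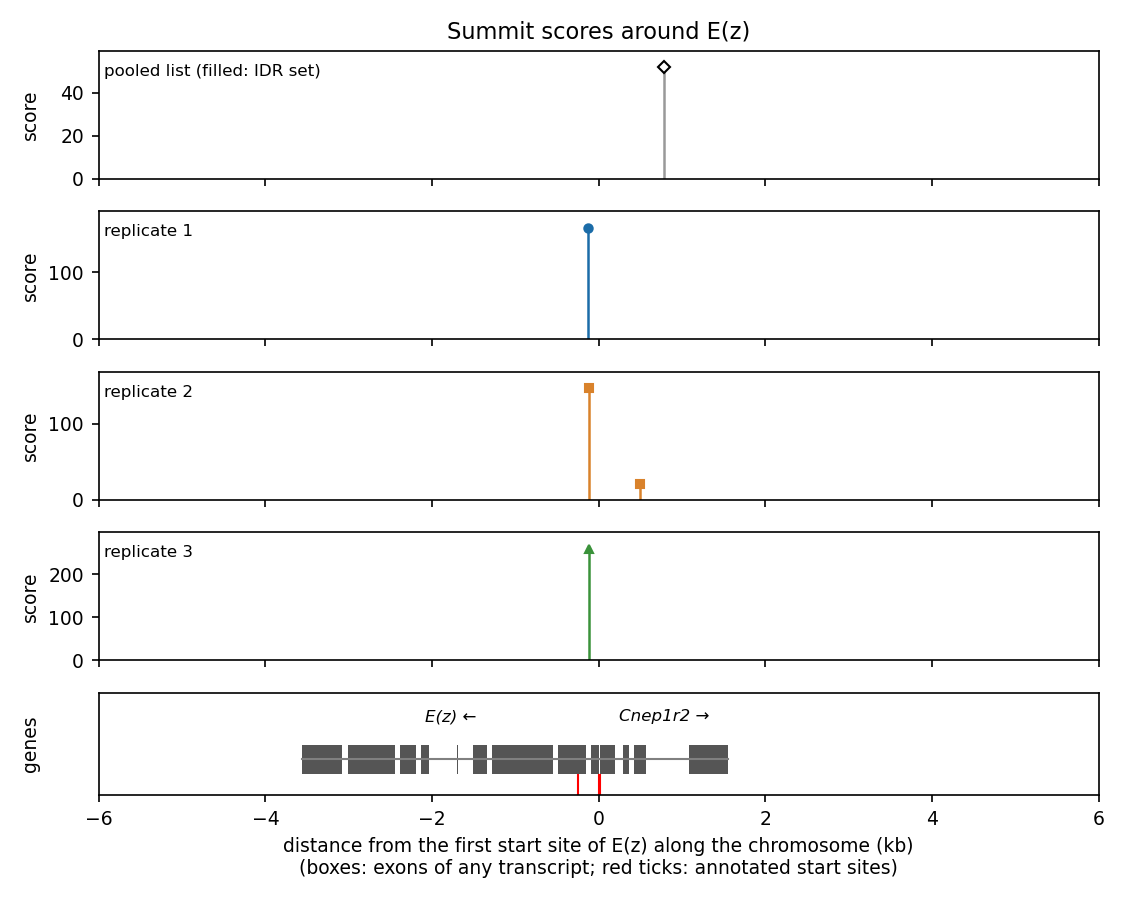
Authors' scores of all summits around E(z) in the pooled list and in replicates 1 to 3, by distance in kb from the first start site of E(z), each panel on its own scale. Each replicate has its highest summit at the E(z) start sites, with scores of 165.6, 146.2 and 258.4, while the pooled list holds a single open diamond, outside the IDR set, with a score of 51.69.

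The remaining genes had weak regions or none. Sce (FBgn0003330), the ubiquitin ligase gene, had 1 pooled summit within 2 kb, at rank 16290, which lay 14 bp from the start of its neighbour CG12883 and 2724 bp from its own. A region there ranked 10473 in replicate 1, and replicates 2 and 3 listed none. esc (FBgn0000588), which encodes the WD-repeat partner of E(z), had 1 pooled summit at rank 20444, in an intron of Pde1c and 2692 bp from the esc start. Its replicate ranks of 29566, 21824 and 22267 all lie far below 4805. Scm (FBgn0003334) had no summit in any list, and the nearest IDR summit was 18985 bp from its start.

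pho (FBgn0002521), the gene of the DNA-binding protein Pleiohomeotic, had no summit in any list either. It lies on chromosome 4, where the lists were almost empty. Of 80 protein-coding genes on chromosome 4, 0 had an IDR or pooled summit in the gene or within 2 kb, and 23, 4 and 4 had one in the whole lists of replicates 1, 2 and 3. The absence at pho therefore cannot be told apart from the absence on this chromosome.

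By position, 6 of the 11 IDR summits were within 500 bp of some start site, 3 lay in introns further away and 2 between genes, beside 42.6%, 41.1% and 13.3% of all IDR summits. In base composition they spanned much of the set. Windows of 100 bp on either side held between 17.9% and 55.7% G and C, with a median of 37.3%, where the median was 37.8% for all IDR summits and 43.3% for 23895 pooled regions outside the set. The 6 summits near start sites spread over most of this range, with 55.7% at ph-d, 54.2% at Psc, 49.3% at Su(z)2, 42.8% and 31.8% at the first and second ph-p peak, and 30.8% beside Pc.

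The strongest ph-d summit and the E(z) summit had the lowest shares of G and C of those examined here. The ph-d window had 17.9% G and C, as low as 0.104% of IDR summits, and an unbroken run of 64 A and T bases. No other IDR summit had a run as long. In the E(z) window, with 22.4% G and C, the longest run was 33 bases, and 0.728% of IDR summits had one as long. At the strongest ph-p peak the content was 42.8% and the longest run 14 bases, which 31.2% of IDR summits reached or passed. How reads from such A and T rich stretches were placed was not tested.

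Sequence words known for Polycomb recruiters were counted in these windows, on either strand. Such words are common among all IDR summits too, and differences from those shares were not tested. The word GAGAG, bound by GAGA factor and Pipsqueak, was present at 4 of 11 summits, beside 33.5% of all IDR summits and 27.0% of pooled summits outside the set. Those 4 were both Psc summits, the ph-d promoter and Su(z)2, and the Psc promoter held it 6 times, overlaps included. The core of the Pho element, GCCAT, was present at 2 of 11, the Psc intron and a ph-p intron, beside 24.3% and 35.5%. The repeat GTGTGT, like the one bound by Combgap and able to overlap itself, was present at 5 of 11, beside 18.4% and 17.5%, with up to 6 overlapping matches at the ph-d promoter.

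Other words were scarcer. The Zeste word TGAGTG and the palindrome GCATGC each occurred at 1 of 11 summits, the second ph-p peak, beside 12% and 4.41% of all IDR summits and 11.3% and 5.24% outside the set. The BEAF-32 word CGATA, which is part of the longer DRE word, occurred at that same summit, beside 21.2% and 20.0%. The TATA box word TATAAA occurred at 3 of 11, beside 29.5% and 21.4%. The E(z) window held GCCAT once and the TATA box word 3 times. At 0 of 11 summits were the DRE word TATCGATA (0.832% of all IDR summits and 0.377% outside), the E-box CACGTG (2.04% and 2.72%) and the Motif 1 word GGTCACAC (1.19% and 0.49%). The strongest ph-p and the strongest ph-d summit held none of the 10 words.

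Other genes of the Polycomb system were examined from a list of 22. An IDR summit at a start site was found in 5 of 22 (22.7%), beside the 13.0% of all genes, and in the single replicates in 5, 6 and 4. The median length of the 22 genes was 6577 bp, near the border of the longest class of genes, from 6472 bp on, and the next, from 2835 to 6468 bp. The shares in these classes were 30.5% and 15.2%. Neither class was matched to the list in length. The part of length was not tested. The 5 genes with an IDR summit at a start site were jing, Kdm2, cg, lolal and corto. jing, a zinc finger gene whose product joins Polycomb repressive complex 2, had the highest, which scored 1115 at rank 151, lay 61 bp from a start and ranked 151, 90 and 295 in replicates 1, 2 and 3. Kdm2, a histone demethylase gene, had one 154 bp from its start with a score of 391.5, and 3 more inside the gene, up to 517.8. The other promoter peaks were weaker. That of cg, the gene of the DNA-binding protein Combgap, had a score of 177.6, that of lolal, a BTB-domain protein gene, 218.4, and that of corto, a chromodomain protein gene, 195.3.

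Summits in the gene or within 2 kb were found in 10 of the 22 (45.5%). The share was 25.8% of all genes, 51.9% of the longest class and 28.2% of the next. As beside Pc, several of these lay nearer to the start of a neighbour than to that of the listed gene. The phol summit, with a score of 1872 and rank 31, was 1520 bp from a start of phol but 111 bp from that of CG3552, and it ranked 60, 27 and 27 in replicates 1, 2 and 3. The Caf1-55 summit, with a score of 1667 and rank 46, was 127 bp from the start of Art3 and 3959 bp from that of Caf1-55. Those at Pcl and calypso were 470 and 144 bp from starts of other genes, and no region of replicate 3 overlapped either. The stronger of the pair at dsp1, with a score of 965.2 and rank 222, lay 598 bp from CG9921 and 610 bp from dsp1.

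Of 16 genes of the opposing Trithorax group, 4 had an IDR summit at a start site (25.0%) and 9 within 2 kb (56.2%). The shares of all protein-coding genes were 13.0% and 25.8%. The median length of the Trithorax genes was 8484.5 bp, and in the longest class of genes, from 6472 to 1965857 bp, the shares were 30.5% and 51.9%. That class was not matched to the list in length. Of 10 homeotic and segmentation genes known as Polycomb targets, 0 had an IDR summit at a start site and 3 had one within 2 kb. Their median length was 30563 bp, longer than the 8360 bp of the 10 core genes. The differences between these lists were not tested, and the counts at start sites were 4, 4 and 4 for the Trithorax genes and 0, 0 and 0 for the targets in the strongest regions of replicates 1, 2 and 3.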

How the data were processed

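Chromatin bound by CG16779-GFP was measured in 3 replicates of 1 group. The peak lists and their scores were deposited by the authors. Per the file listings deposited with the samples, 1 replicate's alignments and 1 further file entered each replicate list. The listings derive the pooled list from the 3 replicates together and the IDR set from these lists. The deposited score and other summit offset columns were used from the 5 lists on dm6. Lists on dm3 were not used, since the annotation is of dm6. Not given in the sources used here were the aligner, the peak caller and the threshold for IDR.

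Scores were ranked among regions on the chromosome arms (X, Y, 4 and both arms of chromosomes 2 and 3). Start sites came from Ensembl release 115, without transposable elements, and sequence from RefSeq's copy of the assembly, in which 0 regions ran past an arm's end. An IDR peak was matched to the overlapping replicate region (at least 1 bp) with the nearest summit. Windows for words were 100 bp on either side. Genes named were the 10 members, genes with starts nearest to their summits, and genes of the list of 22 with an IDR summit, those not at a start site being named after their values were seen. The members, gene lists and words were chosen with earlier results of these data known. No test was made. The counting was tested on simulated data. Depth is unknown, so no intervals are given. Python 3.11.15, numpy 2.4.6 and matplotlib 3.10.9 were used.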

Additional observations from a re-analysis of the deposited data

How the results depend on the processing

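The count of 4 genes with an IDR summit at a start site ranged from 3 to 5 over the alternatives. It was 3 with IDR peaks above the median score, when Su(z)2 was lost, 3 with a window of 250 bp, when ph-p was lost, and 3 with only the most 5' start of each gene. A window of 1000 bp left it at 4. The authors' lists include no IDR set without 1 replicate, so sets built here stood in for it, and they count a different object. In each of these sets the count was 5, because E(z) joined, which has its promoter region in the replicate lists only. It was also 5 when the strongest regions of all 3 replicates were used, an alternative chosen after seeing the data. The count of 5 genes within 2 kb was 4 above the median score, between 6 and 6 without 1 replicate, 6 within 5 kb, where Sce joined, and 3 in the gene body alone, where Pc and ph-d were lost. Their 11 summits became 7 in the gene body alone, 17 within 5 kb and between 11 and 13 without 1 replicate. Both changes follow from the width searched. The mean count over replicates, 6, was 5 with 2402 strongest regions, 7.33 with the whole lists and 4.33 in gene bodies. Of the summits, 10 were matched in all 3 replicates, also when 50% of the shorter region had to be shared, and 11 with the whole lists. The share of all IDR peaks so matched is not given. For the strongest summit of each of 5 genes, 6 of 15 replicate ranks moved by more than the SD between replicates. No paired analysis was possible because there is 1 group. Apart from the strongest regions of all 3 replicates, shares of all protein-coding genes are not given for the alternative gene counts. Those counts therefore do not show how the difference from all genes changed. The fixed length of the lists and the unknown depth limit what a missing region shows.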

Other observations

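Besides the E(z) promoter, 4 regions ranked among the 4805 strongest of every replicate without an overlapping region in the pooled list. The strongest of them, on 3R from 25996540 to 25996725, ranked 407, 562 and 557 in replicates 1, 2 and 3 and lay 405 bp from the start of CG43116. The second, on 2L from 2972508 to 2972931, ranked 1304, 2704 and 813 and lay 171 bp from the start of gammaTub23C. The other two had their nearest starts at mdy, 1475 bp away, and CG33919, 3872 bp away. These regions were named after their values were seen, and no cause was tested.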
